A study of Drosophila melanogaster with 4 samples.

Results

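The placed heterochromatin of the Drosophila melanogaster genome carried 369 of the 7683 peaks in a ChIP-seq peak list for Deformed (Dfd), or 4.80% (exact 95% interval 4.34 to 5.30%). These peaks were taken by name alone: every peak on a sequence of the release 5 assembly whose name ends in Het, at any score. The 6 such sequences were 2LHet, 2RHet, 3LHet, 3RHet, XHet and YHet. The name is that of the assembly, and the list holds no chromatin mark against which it could be checked. The study made 2 libraries of chromatin precipitated with a rabbit antibody to green fluorescent protein (GFP) and 2 of input DNA. All 4 came from embryos of the strain Dfd-GFP-Pacman, genotype PBac{y[+]-attP-3B}VK00037, labelled as 0 to 8 h old and of unknown sex. Their transgene is the genomic Dfd coding region with GFP in place of the stop codon. The embryos of the input libraries carried it too, and no library of untagged embryos was analysed here. The protocol text names other flies (y; bw cn sp) and a window of 8 to 16 h, so the age is given as labelled. Embryos were fixed with 1.8% formaldehyde for 15 min, per that text.

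Dfd is a Hox protein, a transcription factor with a homeodomain that binds short DNA motifs and gives the mandibular and maxillary segments of the head their identity. The heterochromatin around the centromeres is a different setting. It is rich in satellite DNA and transposable elements, is packed with methylated histone H3 and the protein HP1, and holds few genes, some of them essential. Release 5 joined the pieces of heterochromatin that could be assigned to a chromosome into the Het sequences. Reads from repeated DNA can align equally well to several copies, there and elsewhere; how such reads were treated is not given in the sources used here, and its part in the values below was not tested.

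Each peak has a start, an end and a score, read here as −log10 p of enrichment over background. The list ties no value to a library, so the spread between the 2 ChIP libraries is unknown, as is their depth, and nothing below was tested across samples. Intervals cover counting error within this list. Peaks are not independent replicates, so no test was made between sequences, and differences are described by values and intervals.

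Most heterochromatic peaks were weak and narrow, and a few were among the highest of the list. Over the 369 peaks the median score was 12.58 (95% interval from order statistics 11.69 to 13.11), with quartiles of 10.11 and 18.78. Scores ran from 6.44 to 411.64. The median over all peaks of the list was 13.7 (interval 13.53 to 13.83). Het widths had a median of 330 bp (interval 311 to 358 bp), near the 341 bp of the whole list (interval 337 to 346 bp). Of the Het peaks, 12 had the least width in the list, 201 bp. The widest, on 3RHet, reached 2214 bp. Peaks covered 169 kb, or 1.99% of the summed spans from the first to the last peak of each scaffold.

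**Figure D1:**
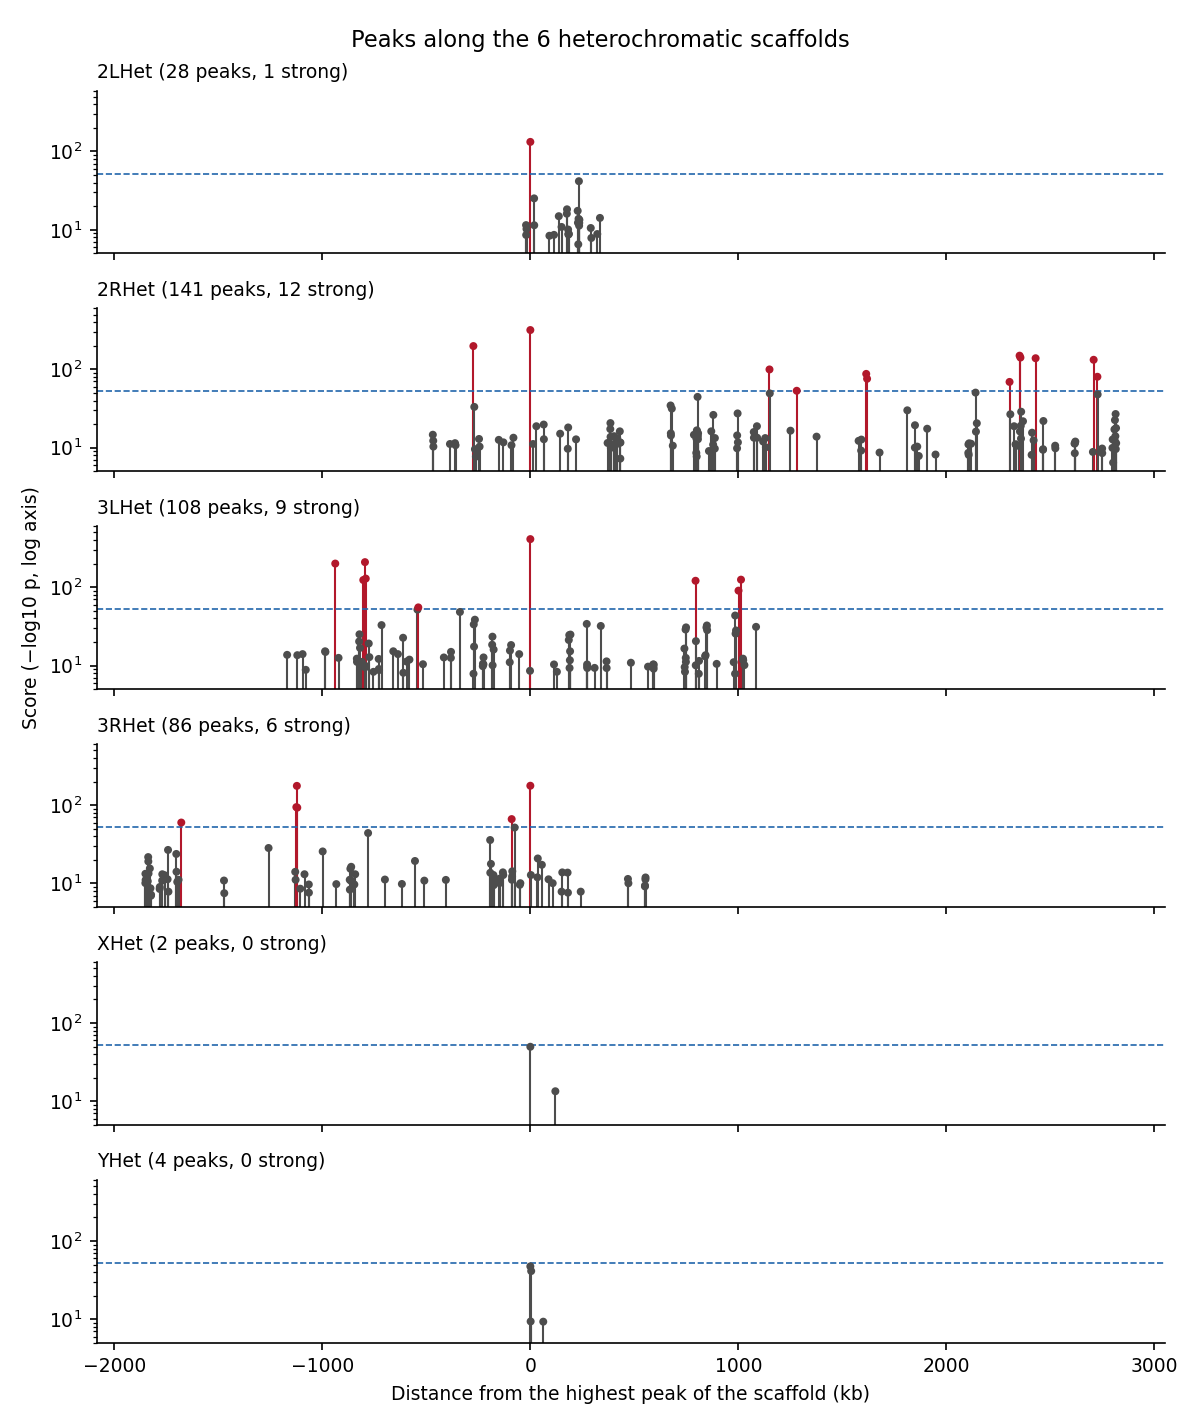
Score (−log10 p, log axis) of each peak against its distance in kb from the highest peak of its scaffold, with 1 panel per scaffold. Points and stems in red are strong peaks, at or above the dashed line at a score of 52.26, and grey ones are weaker; 2RHet holds 12 strong peaks, 3LHet 9, 3RHet 6, 2LHet 1, and XHet and YHet none.

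The 4 scaffolds of the autosomes held 363 of the 369 peaks (98.4%). 2RHet had 141 peaks over a span of 3.29 Mb, or 42.9 per Mb (exact Poisson 95% interval 36.1 to 50.6). 3LHet had 108 over 2.25 Mb, or 47.9 per Mb (interval 39.3 to 57.8). 3RHet had 86 over 2.40 Mb, or 35.8 per Mb (interval 28.6 to 44.2). The intervals of these 3 overlapped. 2LHet was short and dense, with 28 peaks over 0.355 Mb, or 78.8 per Mb (interval 52.3 to 113.8), and its interval lay above those of 2RHet and 3RHet. With peaks at most 2000 bp apart counted once, 2LHet still had the highest value, 39.4 per Mb, against 24.0 on 2RHet and 22.0 on 3RHet. Its interval of 21.5 to 66.1 then rested on 14 units and overlapped theirs.

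Heterochromatin had more peaks for its size than the large chromosome arms, while its density of strong peaks was within counting error of theirs. All Het peaks together reached 43.5 per Mb (interval 39.2 to 48.2), against 21.4 per Mb (interval 20.5 to 22.2) on the large arms 2L, 2R, 3L, 3R and X. The last 1 Mb of those arms next to the centromere had 45.8 per Mb (interval 40.1 to 52.1), which overlaps the heterochromatic value. The list as a whole had 46.0 per Mb, with 57.2 on the unplaced sequence U and 145.5 on the additional unplaced sequence Uextra, so the heterochromatin was dense beside the arms and not beside the list. Strong peaks, the top 10% of the list by score with a limit of 52.26, numbered 3.30 per Mb (interval 2.19 to 4.77) on the Het scaffolds and 3.05 per Mb (interval 2.75 to 3.38) on the large arms. At the proximal ends they numbered 6.20 per Mb (interval 4.21 to 8.80). On chromosome 4, a small autosome that is itself largely heterochromatic, both densities were higher, with 67.4 peaks and 25.4 strong peaks per Mb (intervals 53.9 to 83.4 and 17.4 to 35.8). Spans stand in for sequence lengths, which the file does not give, and include stretches of unknown bases. A span ends at its outer peaks, so it can be short where peaks are few, as on YHet with 64.1 per Mb over 0.0624 Mb. The proximal ends were instead counted over a fixed 1 Mb per arm, measured from the peak nearest the centromere.

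**Figure D2:**
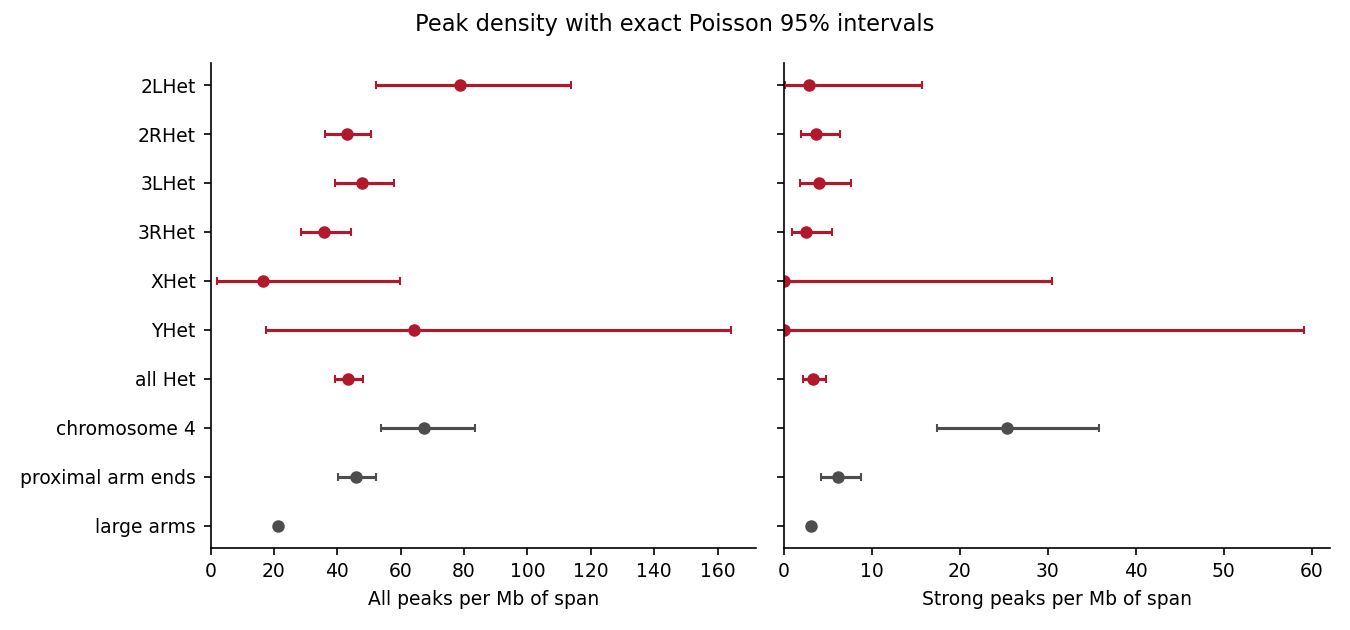
Peaks per Mb of span (left) and strong peaks per Mb of span (right) on each Het scaffold, on all of them together (red), and on chromosome 4, the centromere-proximal 1 Mb of the large arms and the whole large arms (grey). Points are densities and bars exact Poisson 95% intervals; all Het peaks lie at 43.5 per Mb against 21.4 on the large arms, while strong peaks lie at 3.30 and 3.05 per Mb, and the wide intervals of XHet and YHet rest on 2 and 4 peaks.

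Scores differed little between the autosomal scaffolds. Median scores were 12.92 on 2RHet (interval 11.97 to 14.02), 12.76 on 3LHet (interval 11.69 to 15.22), 11.365 on 3RHet (interval 11.08 to 13.11) and 11.355 on 2LHet (interval 8.91 to 13.81). These intervals all overlap. The upper quartile was highest on 3LHet, at 24.6, against 18.78 on 2RHet, 15.1 on 3RHet and 14.4 on 2LHet. All 4 medians lay below the 14.3 of the large arms (interval 13.95 to 14.6) and the 29.98 of chromosome 4 (interval 23.19 to 46.59); the interval of 3LHet reached into that of the large arms, and that of 2RHet did too.

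**Figure D3:**
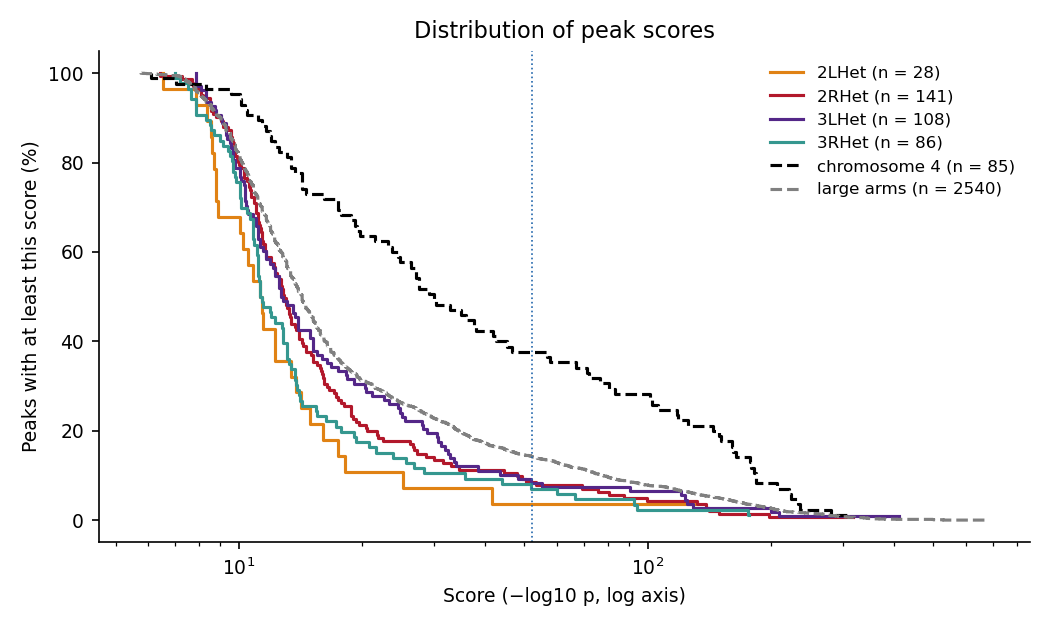
Share of peaks (%) with at least the score on the x axis (−log10 p, log axis) for the 4 autosomal Het scaffolds (solid), chromosome 4 and the large arms (dashed). The dotted line marks 52.26, which 7.59% of all Het peaks reach, against 14.3% on the large arms and 37.6% on chromosome 4.

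The 28 strong Het peaks made up 7.59% of the 369 (exact interval 5.10 to 10.8%), beside 10.0% of all peaks in the list and 10.1% of those elsewhere, both within that interval. Of the 28, 12 were on 2RHet, 9 on 3LHet, 6 on 3RHet and 1 on 2LHet. Within a scaffold they made up 8.51% of peaks on 2RHet, 8.33% on 3LHet, 6.98% on 3RHet and 3.57% on 2LHet, with overlapping intervals. The weakest strong members scored 53.26 on 2RHet and 55.29 on 3LHet, and the 2 members just outside the limit both scored 51.76, on 3LHet and 3RHet. Strong peaks were also wide, with a median of 986 bp (range 452 to 2214 bp) against 313 bp for the other 341. The caller sets width and score from one signal, so this is a description of the calls.

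The highest heterochromatic peak lay on 3LHet at bases 1396264 to 1397533, was 1270 bp wide and scored 411.64, the rank of 6 in the whole list. Nothing else strong was near it. Its only close companion was a 207-bp peak of score 8.57 that ended 846 bp before it, and the next peak on the other side was 113008 bp away. The second highest lay on 2RHet at bases 471589 to 472690, was 1102 bp wide and scored 317.52, with its nearest peak 12445 bp away. No other Het peak was in the top 20 of the list.

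On 3LHet, the strong peaks next in score were at bases 601207 to 602716 with 209.16 and at bases 458539 to 459737 with 200.56. The former, 1510 bp wide, is the widest peak of the scaffold and has a second strong peak beside it at bases 605123 to 606320, with 129.03. One more strong peak, at bases 593210 to 594515 with 123.64, completes a neighbourhood of 3 strong peaks in 13.1 kb. Further along, a peak at bases 2190612 to 2191491 scored 120.97. Near the end of the occupied span, a pair at bases 2397352 to 2397859 and 2409091 to 2410018 scored 90.49 and 124.98. The remaining strong peak lay at bases 857995 to 858737. Of the 9 strong peaks, 5 lay before and 4 after the middle of the span.

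On 2RHet the strong peaks lay mostly toward the end with the higher coordinates, with 3 before and 9 after the middle of the span, although its peaks as a whole were split 74 and 67. Before the middle, besides the peak of 317.52, there was one at bases 197886 to 198842 with 198.23 and one at bases 1621457 to 1622068 with 99.7, which had a 1337-bp peak of 49.29 only 357 bp behind it. After the middle, a close pair at bases 2823353 to 2824674 and 2827558 to 2828541 scored 149.5 and 141.41. The widest peak of the scaffold, 1647 bp at bases 2900213 to 2901859, scored 138.63. A pair 17212 bp apart, at bases 3179427 to 3180579 and 3197792 to 3198243, scored 132.43 and 80.41. Another pair, 3412 bp apart at bases 2086333 to 2087117 and 2090530 to 2091247, scored 87.48 and 75.81. The last of the strong peaks named by rank lay at bases 2775506 to 2775962 with 69.09.

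On 3RHet the most compact strong region of the heterochromatin spanned bases 773649 to 780069. Its 3 peaks, all strong, covered 76.7% of 6.42 kb. The middle one, at bases 776459 to 777446, scored 176.15, and its broader flanks of 1726 and 2214 bp scored 94.32 and 92.91. The highest peak of the scaffold lay at bases 1898911 to 1899682, 772 bp wide with a score of 176.89. A weak peak of score 12.82 followed it after a gap of 2077 bp. A broad peak of 2163 bp at bases 1808441 to 1810603 scored 66.34, and the sixth strong peak, at bases 220965 to 221756, scored 59.94 and was followed by 204795 bp without a peak.

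2LHet had 1 strong peak, at bases 32801 to 34928. It scored 132.43, was 2128 bp wide, more than any other peak on that scaffold, and stood 16839 bp from its nearest neighbour. The next in score were at bases 266603 to 268059 with 41.71 and at bases 51768 to 52177 with 25.17.

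The sex chromosome scaffolds carried 6 peaks in all and none of the strong ones. The 2 peaks of XHet were 119707 bp apart, a 729-bp peak at bases 75628 to 76356 with a score of 49.78, close under the limit, and a 440-bp peak at bases 196064 to 196503 with 13.46. YHet belongs to the Y chromosome, which only males carry and which holds a small number of genes needed for male fertility. Its 4 peaks included 3 close together, at bases 71772 to 72191 with 47.35, bases 73333 to 73533 with 9.38 and bases 75760 to 76328 with 41.23; the last, at bases 133970 to 134182, scored 9.31. With so few peaks, the strong share on YHet has an exact interval from 0 to 60.2%.

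How far these peaks stood above background could be worked out for part of them. A single background rate of 80.0563 gave 4588 of the 7683 scores of the list exactly to 2 decimals, as the upper tail of a Poisson distribution. It did so for 176 Het peaks (47.7%), among them 21 of the 28 strong ones. For these 176, the number of overlapping fragments inferred for the peak's summit had a median ratio to the rate of 1.92-fold (interval 1.89 to 2.00) and ranged from 1.60-fold to 8.99-fold. The 21 strong ones had a median of 4.60-fold, against 4.42-fold for 296 strong peaks of the large arms. The peak of 411.64 on 3LHet came to 8.99-fold, and those of 209.16 and 200.56 on the same scaffold to 6.11-fold and 5.97-fold. On 2RHet the peak of 198.23 came to 5.93-fold, and the strong peak of 2LHet to 4.81-fold. The middle peak of the compact region on 3RHet came to 5.57-fold. On XHet and YHet, the peaks of 49.78 and 47.35 came to 3.07-fold and 3.01-fold.

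Scaffolds differed in how often the shared rate fitted the scores. It did for 66 of 108 peaks on 3LHet (61.1%), all 9 strong ones included, and for 54 of 141 on 2RHet (38.3%), with 8 of 12 strong ones. Within 0.02 of the score rather than exactly, the same rate fitted 11 of the 12 on 2RHet, 5 of the 6 on 3RHet and 26 of all 28 strong Het peaks, so the strong peaks differed between scaffolds mainly at the exact match. Shares were 46.5% on 3RHet and 42.9% on 2LHet, beside 52.7% on the large arms, 78.8% on chromosome 4 and 68.7% on U. Among peaks under a score of 20 alone, 60% matched on 3LHet and 35.1% on 2RHet. For peaks without an exact match, such as that of 317.52 on 2RHet, the background rate was not settled and no ratio is given.

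Heterochromatic peaks came close together or far apart. Of the 363 gaps between neighbouring peaks, measured edge to edge, 156 (43.0%) were at most 2000 bp and 152 (41.9%) over 10000 bp, with 55 (15.2%) in between. The large arms showed the same parting, with 48.1%, 42.6% and 9.23% of 2535 gaps. The class in between held more gaps on chromosome 4 (28.6%), U (26.0%) and Uextra (50.7%). Very long gaps were rarer in heterochromatin than on the large arms. In heterochromatin 15.2% of gaps exceeded 50000 bp, against 27.0% on the large arms. The share was lower still on chromosome 4 (7.14%) and on U (8.25%). Peak density differs between these sequences, and its part in the gaps was not tested. No 2 peaks of the list were closer than 50 bp, so a broad enriched stretch with longer dips is listed as several peaks.

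**Figure D4:**
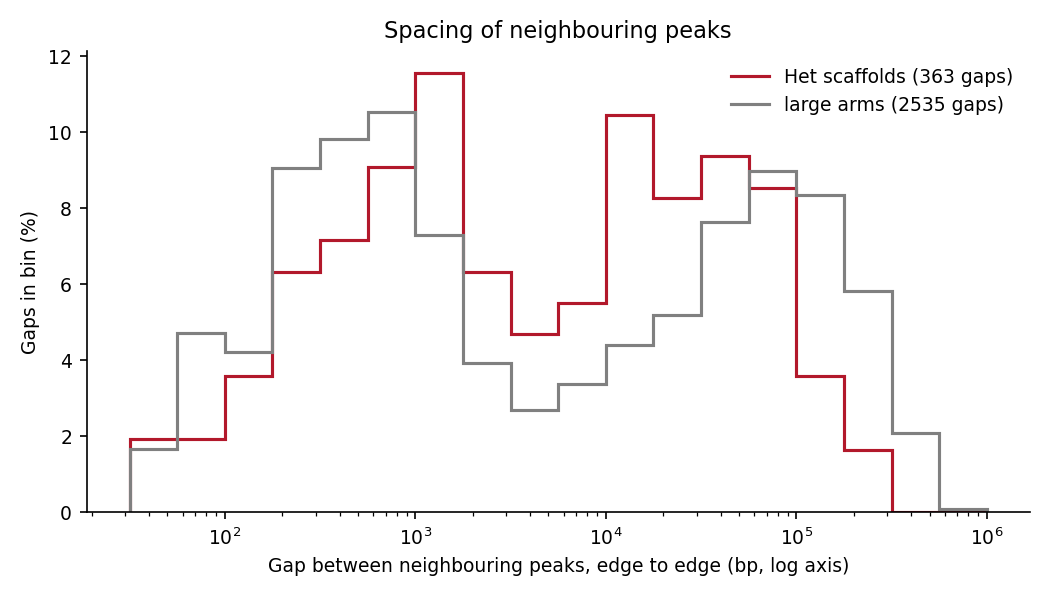
Share of gaps (%) between neighbouring peaks by gap length (bp, edge to edge, log axis) on the Het scaffolds (red, 363 gaps) and the large arms (grey, 2535 gaps). Both have a trough between 2000 and 10000 bp, which holds 15.2% of Het gaps and 9.23% of arm gaps, and the arms have more gaps over 50000 bp.

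Most Het peaks had company. Another peak lay within 5000 bp of 278 of them, or 75.3% (exact interval 70.6 to 79.7%). The share was 78.0% on 2RHet, 77.9% on 3RHet, 75% on 2LHet and 71.3% on 3LHet, with overlapping intervals. Over the whole list it was 75.9%, so the heterochromatic share was that of the list. It was 69.0% on the large arms (interval 67.1 to 70.8%), 77.6% on U and 80.2% on Uextra. The same count was made for strong and weaker peaks apart. Of the 28 strong Het peaks, 19 had another peak within 5000 bp (67.9%, interval 47.6 to 84.1%), against 76.0% of the weaker ones (interval 71.1 to 80.4%). On the large arms, 31.1% of 363 strong peaks had one (interval 26.4 to 36.2%), and 75.3% of the weaker peaks (interval 73.4 to 77.1%). On chromosome 4 the value was 62.5% of 32 strong peaks (interval 43.7 to 78.9%). Next to the centromere, on the last 1 Mb of the large arms, it was 41.9% of 31 (interval 24.5 to 60.9%), and the shares were 64.3% of 14 on U and 79.2% of 332 on Uextra. Peak density differs between these sequences, as given above, and its part in these shares was not tested. In heterochromatin, 9 of the 28 strong peaks had a second strong peak within 5000 bp. The counts were 12 of 32 on chromosome 4, 58 of 363 on the large arms and 2 of 31 at their proximal ends. On U they were 2 of 14, and on Uextra 62 of 332.

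Linking strong Het peaks across at most 30000 bp gave 6 neighbourhoods that together held 14 of the 28. The 2 largest, with 3 strong peaks each, were those described on 3LHet and 3RHet, and the other 4 were the pairs on 2RHet and 3LHet. The pairs spanned 4.92 to 18.8 kb. The other 14 strong peaks stood alone at this distance. Linking was done on the Het scaffolds only, so these counts have no counterpart from the rest of the list.

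Small clusters, not long ones, were the usual form of grouping. Joining peaks at most 2000 bp apart left 132 single peaks, 44 pairs, 18 sets of 3, 13 sets of 4 and 6 groups of at least 5. Sets of 2 to 4 held 194 peaks, or 52.6% of Het peaks (interval 47.3 to 57.8%), against 24.3% on the large arms (interval 22.7 to 26.0%). Groups of at least 5 held 43, or 11.7% (interval 8.56 to 15.4%), against 37.9% on the large arms (interval 36.0 to 39.8%). Single peaks made up 35.8% and 37.8%. On 3RHet no group reached 5 peaks, while on 2RHet 4 groups held 20.6% of the peaks (interval 14.2 to 28.2%). The intervals of these shares count peaks as units, yet peaks of a set belong to it together, so the intervals are too narrow. Groups of at least 5 numbered 6 in heterochromatin and 113 on the large arms. In 25 of the 37 sets of at least 3 peaks (67.6%), the highest peak was also the widest, against 121 of 208 (58.2%) on the large arms. Those sets had a median of 4 peaks in heterochromatin and 5 on the large arms, and the part of set size was not tested. A strong peak was included in 5 of the 37 sets (13.5%), against 11 of the 208 (5.29%), both small counts. Over all peaks, 7.59% were strong in heterochromatin and 14.3% on the large arms.

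On the large arms, 76 of 113 groups of at least 5 peaks were 7 to 10 kb long, with a median of 8291 bp over the 113. Of the 6 Het groups, 5 were of similar length, 8.60 to 9.22 kb, and the sixth was shorter. Their lengths were 8.61 kb on 2LHet at bases 261266 to 269871, 8.60 kb on 3LHet at bases 1581507 to 1590103, and 8.81, 8.70, 9.22 and 3.55 kb on 2RHet. The 2RHet groups lay at bases 1269797 to 1278610, 3279734 to 3288428, 2822633 to 2831853 and 856317 to 859870. The group at bases 2822633 to 2831853 held 7 peaks and the close strong pair named above, and was the only one with a strong peak. The group of 5 peaks at bases 856317 to 859870 was the weakest, with a highest score of 20.61.

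Within 3 of these groups, the highest peak had a similar place and width, while scores and the positions of weaker peaks varied more. In the group of 8 on 2LHet, the highest peak began 5.34 kb from the start of the group, was 1457 bp wide and scored 41.71. In the group of 9 on 2RHet at bases 1269797 to 1278610, it began 5.41 kb from the start, was 1544 bp wide and scored 44.49. In the group of 8 on 2RHet at bases 3279734 to 3288428, the last of that scaffold, it began 5.15 kb from the start, was 1336 bp wide and scored 26.89. In each, 3 weaker peaks followed it, and 4 or 5 preceded it. Its centre lay 2.54, 2.64 and 2.88 kb from the nearer end of the group. Its score was 3.25, 3.18 and 1.73 times the median score of the group, so the third group was flatter. On the large arms, 29 of 76 groups of 7 to 10 kb (38.2%) had a highest peak at least 1300 bp wide with its centre 2.5 to 2.9 kb from the nearer end, bounds that were drawn from the 3 Het groups after their values were seen. The group on 3LHet was laid out otherwise, with its highest peak of 24.87 at the far end and a second of 24.5 near the start.

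**Figure D5:**
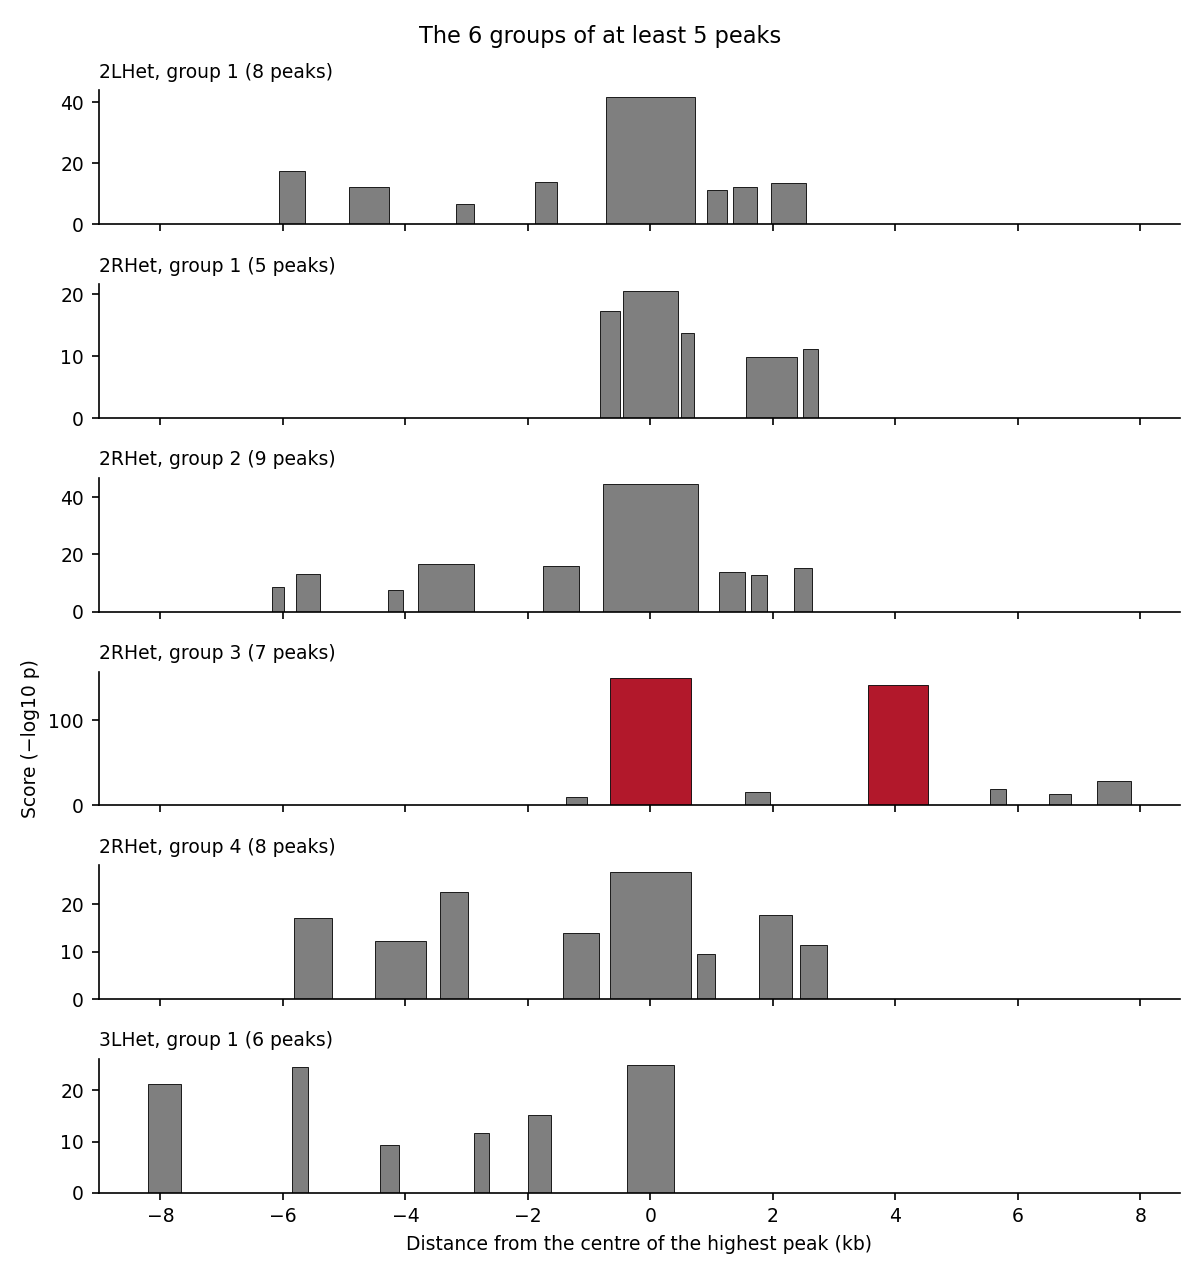
The 6 Het groups of at least 5 peaks, in 1 panel each: bars show peaks at their true width along the distance in kb from the centre of the highest peak, with the score (−log10 p) as height on a separate scale per panel, and strong peaks are red. In the group of 2LHet and in groups 2 and 4 of 2RHet, a peak of 1336 to 1544 bp has 3 weaker peaks to its right and 4 or 5 to its left.

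Long stretches of each scaffold had no peak. The longest were 240 kb on 2RHet between bases 905381 and 1145768, 227 kb on 3RHet between bases 2141618 and 2368304, and 147 kb on 3LHet between bases 1990109 and 2137362. On XHet it was 120 kb between its peaks, on 2LHet 72.8 kb between bases 52717 and 125529, and on YHet 57.6 kb between bases 76328 and 133970. The first peak of 3LHet began only at base 227647. In windows of 100 kb from base 1, 5 of 25 were empty on 3RHet, 4 of 25 on 3LHet and 3 of 33 on 2RHet. The fullest windows held 14 peaks on 2LHet (bases 200001 to 300000), 13 on 2RHet (bases 2800001 to 2900000), and 11 each on 3LHet (bases 600001 to 700000) and 3RHet (bases 1 to 100000). Those of 2RHet and 3LHet held 2 strong peaks each, and those of 2LHet and 3RHet none. Gaps of unknown sequence and stretches to which no read can be assigned would appear in the same way and were not mapped here.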

How the data were processed

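Chromatin of the GFP-tagged embryos was sequenced in 2 ChIP and 2 input libraries, and 1 peak list for the series was used. The submitters' processing notes name BWA, MACS2 and CASAVA (versions 1.7.0.2 and 1.7.0.3) and the build BDGP5, without their roles or settings. Positions follow FlyBase release 5, per the file headers. Read depth, the calling threshold and any pooling of replicates are unknown.

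The deposited score per peak was read as −log10 p, from the values. Poisson rates from 20 to 400 were searched in steps of 0.01 and then of 0.0001. At 80.0563, 59.7% of scores were given exactly to 2 decimals, against 1988 peaks for the best rate elsewhere (391.63). The ratio is the whole pileup k, with the score as −log10 P(X > k), over that rate. The search was tried on scores simulated from the same Poisson model, in a narrow window around each true rate. Those simulations did not test whether distant rates are rejected.

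Strong peaks are the top 10% by score, with ties. Named are the 25 highest Het peaks, the 3 highest and the widest of each scaffold, groups, neighbourhoods and the longest empty stretches. Intervals are 95%, exact binomial (Clopper-Pearson), exact Poisson or, for medians, from order statistics. Members, lists and limits were chosen with earlier results of these data known. Gene annotation and sequence of release 5 were not used here. Python 3.11.15, pandas 2.3.3 and scipy 1.17.1 were used.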

Additional observations from a re-analysis of the deposited data

How the results depend on the processing

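Of 55 alternative settings, 37 kept a value within its interval, or a number within 1.5 times, and 18 moved one; none of the results had a test. Leaving out scaffolds one at a time moved none of the 27 values recomputed in that way. With only the top 50% of the list by score, 153 Het peaks were left, 3.94% of that list, with 18.0 per Mb, a median score of 21.74, a median width of 467 bp, another peak within 5000 bp for 58.2%, and 3 groups of at least 5. Merging peaks within 1000 bp gave 30.6 per Mb over all Het scaffolds and 50.6 on 2LHet, and merging within 2000 bp gave 39.4 on 2LHet. With strong defined as the top 20% of the list, 20.1% of Het peaks were strong. Another peak lay within 2000 bp of 64.2% and within 20000 bp of 88.9% of Het peaks; for strong ones these shares were 42.9% and 96.4%, beside 20.9% and 59.8% on the large arms. Joining across 5000 bp gave 13 groups, and counting sets of at least 3 peaks gave 37. With widths allowed to differ by 5 bp, 146 Het peaks had a counterpart elsewhere in the list, against 40. The cause of the lower share in the top 50% was not tested, and the other moves follow from the settings themselves. The settings for strong peaks with a neighbour, for 2LHet and for the step of the rate were added once the data had been seen. No paired analysis was possible because no value in the list belongs to a single library, and leaving out each replicate was not run for the same reason. Depth is unknown, and its effect was not tested.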

Other observations

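Some Het peaks had a counterpart with the same score and the same width elsewhere in the list. There were 40 of these (10.8%, exact interval 7.86 to 14.5%), with a counterpart on Uextra for 33, on the arms for 9, on U for 7, on another Het scaffold for 2 and on the same scaffold for 2. All scored 15.07 or less, and none was strong. On the large arms the share was 8.15% (interval 7.11 to 9.28%), beside 9.41% on chromosome 4 and 15.2% on U. Uextra holds 4114 of the 7683 peaks of the list. Of the 207 peaks of the large arms with a counterpart, 157 had one on Uextra. Scores at one background rate take few distinct values, so equal pairs also arise between unrelated weak peaks, and how many do was not tested.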
